A study of Mus musculus with 6 samples.

Results

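The RNA of 46 genes that license DNA replication origins and build the replication fork was followed in B16 melanoma cells with and without the IFN-γ receptor chain Ifngr1. The members were listed by name from what their proteins do, with earlier results of these data known. They were matched to gene identifiers through GENCODE release M21 of GRCm38 and sorted into 10 complexes or steps. All 46 were found among the 55335 genes of the deposited tables. All 46 also passed edgeR's filter on low counts, as did 13642 genes in all. Scrambled control and IFNγR1KO cells, with 3 cultures each, were both made from B16-BL6, a mouse melanoma line. Both were transduced with lentiCRISPR v2, which carries Cas9 and a guide RNA, and were selected with puromycin. The guide was against GFP in scrambled control cells, which the labels give as WT, and against exon 1 of Ifngr1 in IFNγR1KO cells, and knockout cells were grown from single clones screened for a lost PD-L1 response to IFN-γ. The cells were seeded overnight in triplicate, no treatment is given for them, and neither which of the guides used against Ifngr1 nor how many clones lie behind the sequenced IFNγR1KO cells is stated, so p-values measure the spread between cultures, and an effect of the knockout and of a clone cannot be told apart.

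A replication origin is first bound by the origin recognition complex (ORC), on which Cdc6 and Cdt1 load the ring-shaped MCM2-7 helicase during G1, a step called licensing. In S phase, Cdc45 and the GINS complex join MCM2-7 to form the active CMG helicase, Pol alpha-primase lays primers, and Pol epsilon and Pol delta extend the leading and lagging strands, held on DNA by the PCNA ring that RFC loads. RPA coats single-stranded DNA, and Fen1, Dna2, ribonuclease H2 and Lig1 turn Okazaki fragments into a continuous strand. Many of these genes are known targets of E2F transcription factors, which act at the entry into S phase.

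In IFNγR1KO cells 27 of the 46 genes fell at an adjusted p under 0.05, where 7.62% of all genes tested fell. By edgeR's quasi-likelihood test none rose, against 7.73% of all genes tested, although 2 were higher at an unadjusted p under 0.05 and DESeq2's Wald test called 0 higher. With edgeR 37 of the 46 had an unadjusted p under 0.05 in either direction, compared with 3948 of the 13642 genes tested. Of the 46 fold changes 40 were below 0, compared with 50.2% over all genes tested. The median log2 fold change of the 46 was -0.58, a level 0.668 times that of scrambled control, beside -0.00 for all genes tested. In 31 of the 46 genes every IFNγR1KO library lay below every scrambled control library, compared with 16.6% of all genes tested. When a log2 fold change below -1 was required as well, the size the study asked of a differentially expressed gene (DEG), 7 fell, and 1.96% of all genes tested did. These 7 were Fen1, Mcm4, Rpa2, Mcm3, Dna2, Orc1 and Cdc6. Without IFNγR1KO replicate 10 the 7 became 3, and the share of all genes tested that fell as DEGs in that fit was not counted. In RNA from whole cultures, fewer cells in S phase and less of these transcripts per cell cannot be told apart.

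**Figure D1:**
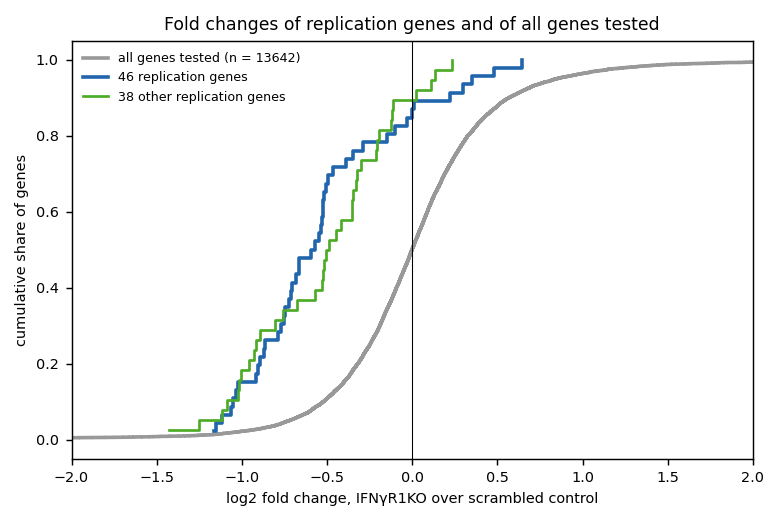
Cumulative share of genes (y axis) up to each log2 fold change of IFNγR1KO over scrambled control (x axis), for all 13642 genes tested (grey), the 46 replication genes (blue) and 38 other replication genes (green). The grey line crosses 0 near the middle, while 40 of the 46 blue steps lie left of 0.

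RefSeq promoters of GRCm38.p6, from 250 bases before to 50 bases after an annotated start, were found for 38 of the 46 genes. They were searched on both strands for the E2F letters TTTCCCGC, TTTCGCGC, TTTGCCGC and TTTGGCGC, and matches on opposite strands can overlap. Of the 38 genes 16 held a match in at least 1 promoter, or 42.1%, where 2.6% of 27025 genes with a promoter did. The 27025 genes were not limited to those that passed the filter on low counts, as all 46 members did. Of the genes that fell, 11 of 22 with a promoter held one, and of those not called 5 of 16 did. The matches of the genes that load and activate the helicase are printed here with up to 10 bases on each side, 5′ to 3′ on the strand of the gene, the E2F letters in capitals. These genes were chosen after their values were seen, to set the helicase beside ORC.
Mcm3 (chr1:20820276-20820303, minus strand): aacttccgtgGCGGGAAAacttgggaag
Mcm3 (chr1:20820263-20820284, minus strand): cttgggaagtTTTGGCGCcaag
Mcm6 (chr1:128359794-128359825, minus strand): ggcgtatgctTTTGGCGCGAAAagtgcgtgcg
Mcm6 (chr1:128359735-128359762, minus strand): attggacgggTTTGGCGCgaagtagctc
Orc3 (chr4:34614966-34614993, minus strand): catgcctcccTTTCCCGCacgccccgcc
Orc1 (chr4:108579417-108579444, plus strand): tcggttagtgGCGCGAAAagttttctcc
Mcm7 (chr5:138172031-138172058, minus strand): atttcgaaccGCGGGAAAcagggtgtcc
Mcm7 (chr5:138171850-138171877, minus strand): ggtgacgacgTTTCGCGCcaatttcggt
Mcm5 (chr8:75109346-75109377, plus strand): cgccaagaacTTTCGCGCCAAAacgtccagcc
Gins3 (chr8:95633508-95633535, plus strand): cgagtgcggcGCGGGAAAgcgagtttga
Cdt1 (chr8:122568037-122568064, plus strand): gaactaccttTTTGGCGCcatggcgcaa
Cdc6 (chr11:98908003-98908030, plus strand): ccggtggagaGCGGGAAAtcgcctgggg
Mcm3, Mcm6 and Mcm7 each hold matches in separate stretches, the 2 matches of Mcm5 overlap in a single stretch, and Mcm2 holds none. Mcm4, Gmnn, Gins1, Gins2 and Gins4 had no promoter entry and were not searched. Among ORC genes Orc1 and Orc3 hold one, and Orc2, Orc4, Orc5 and Orc6 hold none in these windows. A match is a description of letters, not a sign that a factor binds.

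The 3 called genes with the smallest adjusted p and a promoter, Fen1, Rpa2 and Mcm10, held no E2F letters in these windows. Their promoters are printed whole, 5′ to 3′ on the strand of the gene, with CCAAT or its reverse complement ATTGG in capitals. The Mcm10 window ends on TTTGGCG, the start of the form TTTGGCGC, so a match running past its end would not be seen. Fen1 has 2 promoter entries, and neither holds CCAAT.
Fen1 (chr19:10203872-10204171, minus strand): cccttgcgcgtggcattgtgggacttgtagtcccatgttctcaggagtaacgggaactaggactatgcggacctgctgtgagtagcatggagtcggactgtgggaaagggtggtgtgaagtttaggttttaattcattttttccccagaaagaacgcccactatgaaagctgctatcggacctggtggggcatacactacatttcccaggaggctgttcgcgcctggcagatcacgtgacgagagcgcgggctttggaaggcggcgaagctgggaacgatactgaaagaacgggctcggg
Fen1 (chr19:10204344-10204643, minus strand): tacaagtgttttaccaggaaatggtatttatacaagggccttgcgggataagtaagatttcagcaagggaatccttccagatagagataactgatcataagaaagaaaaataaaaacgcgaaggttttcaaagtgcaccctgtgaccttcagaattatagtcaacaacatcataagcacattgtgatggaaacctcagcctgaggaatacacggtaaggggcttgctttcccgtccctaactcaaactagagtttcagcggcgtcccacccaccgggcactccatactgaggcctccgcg
Rpa2 (chr4:132768110-132768409, plus strand): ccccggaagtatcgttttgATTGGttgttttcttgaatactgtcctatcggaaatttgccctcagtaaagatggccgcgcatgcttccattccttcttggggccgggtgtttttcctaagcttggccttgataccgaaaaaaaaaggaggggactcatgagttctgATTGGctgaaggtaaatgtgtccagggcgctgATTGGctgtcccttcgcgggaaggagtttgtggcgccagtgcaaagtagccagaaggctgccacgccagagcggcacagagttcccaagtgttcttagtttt
Mcm10 (chr2:5012742-5013041, minus strand): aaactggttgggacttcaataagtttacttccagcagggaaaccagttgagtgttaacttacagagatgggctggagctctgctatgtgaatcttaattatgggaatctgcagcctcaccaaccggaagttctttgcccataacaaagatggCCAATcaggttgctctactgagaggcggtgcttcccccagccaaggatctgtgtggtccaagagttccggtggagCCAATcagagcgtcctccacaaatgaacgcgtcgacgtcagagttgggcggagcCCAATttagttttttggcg
CCAAT, the letters of the CCAAT box, occurred in promoters of 23 of the 38 genes, or 60.5%. Of all genes with a promoter, whether or not they passed the filter on low counts, 41.1% held it. TTTGAA, a form of the cell cycle homology region of late cell cycle genes, occurred in 5 of 38, or 13.2%, compared with 20.2% of all.

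The libraries held 6698956 to 10579788 counts on genes, and each IFNγR1KO library held fewer than each scrambled control library. One count was worth 0.0966 to 0.142 CPM, the count scaled to library size with TMM factors, which is the unit of every level below unless TPM is named. Ifngr1 itself had 154, 144 and 172 counts in scrambled control and 80, 85 and 82 in IFNγR1KO cells, so its transcript was still present (log2 fold change -0.47, standard error 0.16, edgeR adjusted p = 0.0729). Melanocyte genes were high in every library, with a summed level of 27900 to 34700 CPM for Mitf, Sox10, Pmel, Tyr, Tyrp1, Dct and Mlana. By edgeR 0 of the 7 changed at an adjusted p under 0.05, where 7.62% of all genes tested fell and 7.73% rose. An unadjusted p under 0.05 was found for 1 of the 7, compared with 3948 of the 13642 genes tested. Pmel and Tyrp1 were lower and Mitf higher without overlap between the groups, as were 2267 (lower) and 2176 (higher) of the 13642 genes tested. Marker lists of leukocytes, keratinocytes and endothelial cells summed to at most 1.9 CPM. The 5 fibroblast markers summed to 57 to 75.4 CPM in scrambled control and 129 to 133 CPM in IFNγR1KO cells, through Col1a2 and Col1a1. The list did not move as a whole, since Pdgfra had 4.13, 3.18 and 3.48 CPM in scrambled control and 2.42, 1.76 and 2.11 CPM in IFNγR1KO cells (edgeR adjusted p = 0.0866), Lum was at 0 counts in every library and Dcn had a single count in one. The part of these fibroblast markers in the results on replication genes was not tested. Scrambled control replicate 3 and IFNγR1KO replicate 12 stood apart within their groups, and over the 13642 genes their deviations from the group means had a Pearson correlation of 0.605. Longer transcripts tended to be higher and shorter ones lower in both. Over the same genes, the Spearman correlation of a library's deviation from its group mean with exonic length was 0.429 for scrambled control replicate 3 and 0.34 for IFNγR1KO replicate 12, and it lay between -0.451 and -0.0995 in the other 4 libraries. Deviations within a group cancel, so a positive correlation in a library favours negative ones in the others of its group. Of the 46 genes 44 deviated in the same direction in these 2 libraries, and the share over all genes tested was not counted. Without both libraries 34 of the 46 genes fell, all 27 among them, where 11.8% of all genes tested fell. With the trend on length removed 30 fell, again with all 27, where 9.74% of all genes tested fell. The fold change itself had a Spearman correlation of -0.107 with exonic length over the 46 genes.

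**Figure D2:**
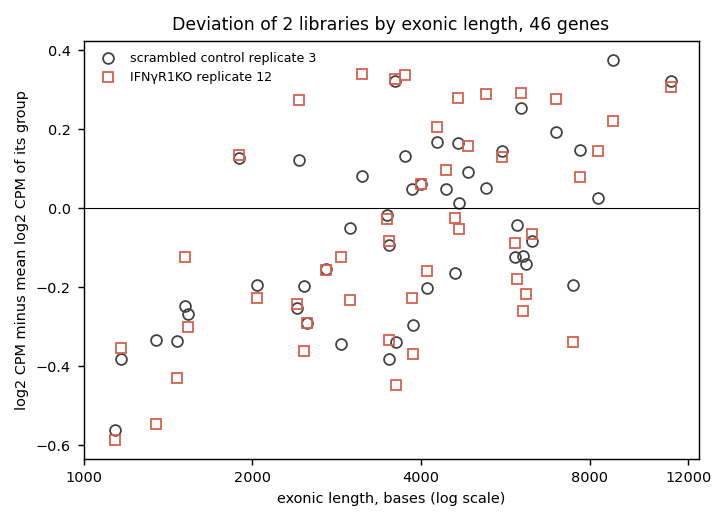
Each of the 46 genes is plotted by its exonic length in bases (x axis, log scale) and by the log2 CPM of one library minus the mean log2 CPM of its group (y axis), for scrambled control replicate 3 (circles) and IFNγR1KO replicate 12 (squares). Most short transcripts lie below 0, with exceptions such as Pold2 and Fen1, and many long ones lie above 0 in both libraries, and 44 of 46 genes have the same sign in both.

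MCM2-7, the core of the replicative helicase, was the complex in which every subunit fell. Its 6 genes had a median log2 fold change of -0.90, and the summed level of the complex was 55% of that in scrambled control (1800 ± 231 CPM against 992 ± 164 CPM, SD, n = 3 each). In the values that follow, libraries come in the order of scrambled control replicates 1, 2 and 3 and then IFNγR1KO replicates 10, 11 and 12. Mcm4 had 101, 105 and 145 CPM against 39.5, 54.1 and 64.9 CPM (log2 fold change -1.15, standard error 0.19, edgeR adjusted p = 0.00209). Mcm3 had 282, 338 and 354 CPM against 120, 154 and 193 CPM (log2 fold change -1.06, standard error 0.18, edgeR adjusted p = 0.00206). These were the largest falls of the complex, and the groups did not overlap for either gene. Mcm6 stood at 268, 315 and 345 CPM against 126, 172 and 197 CPM (log2 fold change -0.91, standard error 0.18, edgeR adjusted p = 0.00466). Mcm5 stood at 230, 276 and 268 CPM against 129, 143 and 145 CPM (log2 fold change -0.89, standard error 0.14, edgeR adjusted p = 0.00123). Mcm5 had the narrowest spread within IFNγR1KO cells of the 6 genes. Mcm2, at 428, 556 and 597 CPM against 260, 304 and 375 CPM (log2 fold change -0.75, standard error 0.18, edgeR adjusted p = 0.0139), came closest to overlapping, between IFNγR1KO replicate 12 and scrambled control replicate 1. Mcm7 had 232, 293 and 274 CPM against 150, 172 and 177 CPM (log2 fold change -0.68, standard error 0.14, edgeR adjusted p = 0.00768). The 6 genes shared their lowest libraries, since scrambled control replicate 1 was the lowest of its group for all 6, and so was IFNγR1KO replicate 10. Mcm2 lost its call in 3 of the 6 fits that left out a library and Mcm7 in 1. Of the exonic bases of Mcm7 8.7% lie under exons of genes on the other strand. On a per-length scale, in TPM (counts per exonic length, scaled to one total), 5 of the 6 genes lay between 153 and 220 TPM in scrambled control, neighbours in that order differing by less than their SDs, while Mcm4 lay at 83.9 ± 25.8 TPM (SD, n = 3). The order in IFNγR1KO cells also ended with Mcm4, at 38.4 ± 12.3 TPM.

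**Figure D3:**
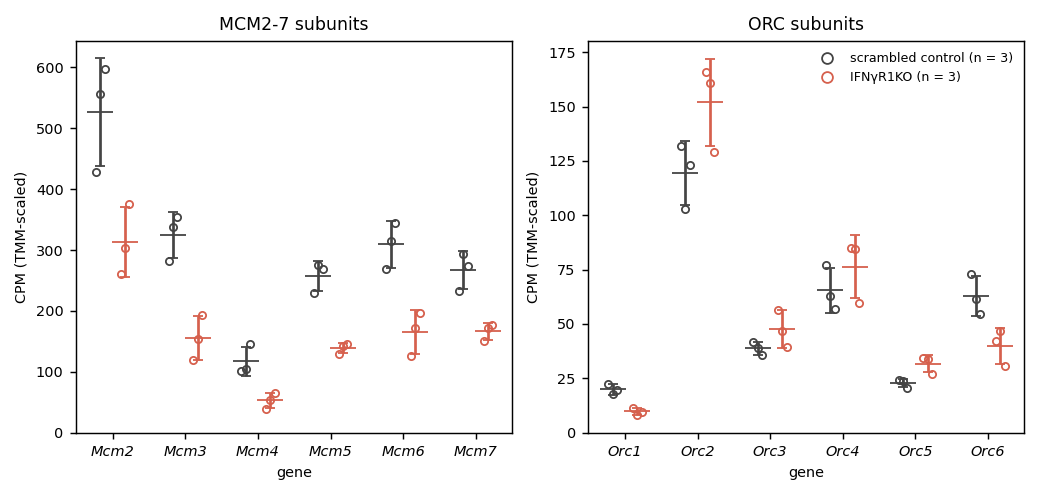
CPM (y axis, from 0) of the 6 MCM2-7 genes (left) and the 6 ORC genes (right) in scrambled control (grey) and IFNγR1KO libraries (red). Circles are libraries, bars the mean and SD of 3 libraries. All red MCM2-7 circles lie below the grey circles of the same gene, while in ORC this holds for Orc1 and Orc6 alone.

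Of the 6 genes of ORC, which marks origins, 2 fell and the other 4 did not pass the test. Orc1, the subunit whose protein is known to be made and destroyed with the cell cycle, had 22.4, 17.6 and 19.5 CPM against 11.4, 8.26 and 9.42 CPM (log2 fold change -1.03, standard error 0.18, edgeR adjusted p = 0.00279). Orc6, the smallest subunit, had 72.8, 61.6 and 54.6 CPM against 42.2, 46.5 and 30.4 CPM (log2 fold change -0.67, standard error 0.17, edgeR adjusted p = 0.023). Both fell without overlap, but Orc6 lost its call in 2 of the 6 fits that left out a library. The 4 others, which form the stable middle of the complex, had values above scrambled control that did not pass the test. Orc5 had 24.2, 23.5 and 20.6 CPM against 34.2, 33.9 and 27.1 CPM (log2 fold change 0.48, standard error 0.15, edgeR adjusted p = 0.0525), with every IFNγR1KO library above every scrambled control library. Over the alternatives its adjusted p ran from 0.0161, without IFNγR1KO replicate 12, to 0.194, without IFNγR1KO replicate 10. Orc4, with the smallest change of the complex, had 76.9, 62.9 and 56.7 CPM against 85, 84.4 and 59.5 CPM (log2 fold change 0.22, standard error 0.17, edgeR adjusted p = 0.437). Orc2 and Orc3 had log2 fold changes of 0.35 and 0.30 with overlapping groups (edgeR adjusted p = 0.143 and 0.234). For Orc2, 29.8% of the exonic bases lie under exons of Nif3l1 on the other strand, a gene with a log2 fold change of -0.03. The summed level of ORC was 329 ± 35.1 CPM in scrambled control and 357 ± 54.4 CPM in IFNγR1KO cells (SD, n = 3 each). Orc1 and Orc4 are the genes of largest and smallest change, a choice that fixes the direction of their ratio, as it does for the like ratios given below. Within a library, the ratio of Orc1 to Orc4 was 0.291, 0.28 and 0.344 in scrambled control and 0.134, 0.0979 and 0.158 in IFNγR1KO cells. Per length, Orc2 was the highest ORC transcript in both groups, and Orc1 was above Orc5 in scrambled control but below it in IFNγR1KO cells (7.17 ± 1.16 against 13.2 ± 0.608 TPM in IFNγR1KO cells, SD, n = 3 each).

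Of the 3 licensing factors, which govern loading of the helicase, 2 fell. Cdc6, the ATPase that joins ORC, had 47.5, 56 and 54.5 CPM against 24.6, 21.8 and 31.3 CPM (log2 fold change -1.02, standard error 0.16, edgeR adjusted p = 0.00132). Cdt1, which brings MCM2-7 to the origin, had 76.6, 99.3 and 95 CPM against 36.7, 50.1 and 61.2 CPM (log2 fold change -0.87, standard error 0.18, edgeR adjusted p = 0.00713). Both fell without overlap, and Cdt1 lost its call without scrambled control replicate 2 (edgeR adjusted p = 0.0532). Gmnn, which encodes geminin, the inhibitor of Cdt1, had 80.4, 79.9 and 56.4 CPM against 53, 55.9 and 34.7 CPM (log2 fold change -0.59, standard error 0.19, edgeR adjusted p = 0.0588). The groups of Gmnn did not overlap, yet it did not pass the test with edgeR, and DESeq2's Wald test gave an adjusted p of 0.0327. The ratio of Cdc6 to Gmnn within a library was 0.591, 0.701 and 0.966 in scrambled control and 0.464, 0.39 and 0.903 in IFNγR1KO cells, so this ratio overlapped between the groups and was highest in scrambled control replicate 3 and IFNγR1KO replicate 12.

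Of the 6 genes that complete and activate the CMG helicase, 5 fell. Mcm10, needed for the helicase to start unwinding, had 72.2, 76.2 and 86.5 CPM against 38.5, 42 and 43.7 CPM (log2 fold change -0.92, standard error 0.14, edgeR adjusted p = 0.000915). Cdc45 had 89.8, 94.5 and 83.6 CPM against 64.1, 62.5 and 58.1 CPM (log2 fold change -0.54, standard error 0.13, edgeR adjusted p = 0.0143). The groups were apart for both, and Cdc45 varied little within each. The GINS complex is a ring of 4 subunits, of which 3 fell. Gins2 had 59.7, 58.2 and 47.7 CPM against 31.7, 35.8 and 28.5 CPM (log2 fold change -0.79, standard error 0.15, edgeR adjusted p = 0.0041). Gins3 had 23.4, 21.1 and 18.9 CPM against 12.6, 14 and 11.2 CPM (log2 fold change -0.74, standard error 0.17, edgeR adjusted p = 0.0108). Gins1 had 45.6, 51.5 and 37.5 CPM against 24.6, 32.6 and 24.9 CPM (log2 fold change -0.71, standard error 0.17, edgeR adjusted p = 0.014). These 3 did not overlap between the groups, but 67.3% of the exonic bases of Gins2 lie under exons of Gse1 on the other strand, itself lower (log2 fold change -0.67, edgeR adjusted p = 0.0169), and whether the counting used strand is not stated. Gins4, the remaining subunit, had 80.5, 73.9 and 54.6 CPM against 81.8, 82.1 and 46.4 CPM (log2 fold change 0.01, standard error 0.21, edgeR adjusted p = 0.983). Its 2 lowest values were those of scrambled control replicate 3 and IFNγR1KO replicate 12, and its exonic length of 1349 bases is among the shortest of the 46. Per length, Gins4 was also the highest of the 6 in both groups, at 130 ± 16.5 and 132 ± 29.7 TPM (SD, n = 3 each).

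PCNA and its loader fell in part. Pcna, the sliding clamp, was the most abundant of the 46 per length, at 864 ± 57.5 TPM in scrambled control and 533 ± 45.6 TPM in IFNγR1KO cells (SD, n = 3 each). Its levels were 900, 887 and 687 CPM against 510, 570 and 420 CPM (log2 fold change -0.72, standard error 0.17, edgeR adjusted p = 0.0136). All IFNγR1KO libraries lay below all scrambled control libraries, and 2 pseudogenes are named after Pcna, with which its reads could be shared. RFC, the ring that opens and loads PCNA, has a large subunit and 4 small ones. Of the small ones Rfc5 had 224, 218 and 224 CPM against 151, 164 and 149 CPM (log2 fold change -0.52, standard error 0.13, edgeR adjusted p = 0.0168). Rfc2 had 135, 157 and 134 CPM against 97.9, 108 and 96.2 CPM (log2 fold change -0.49, standard error 0.13, edgeR adjusted p = 0.0257). Both fell without overlap. Rfc4, with the smallest change, had 85.5, 85.3 and 64.6 CPM against 73, 68 and 51.6 CPM (log2 fold change -0.29, standard error 0.17, edgeR adjusted p = 0.28). Rfc3 and the large subunit Rfc1 had log2 fold changes of -0.51 and -0.39, overlapping between the groups (edgeR adjusted p = 0.12 and 0.147). None of the 3 called genes kept its call in all 6 fits that left out a library.

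**Figure D4:**
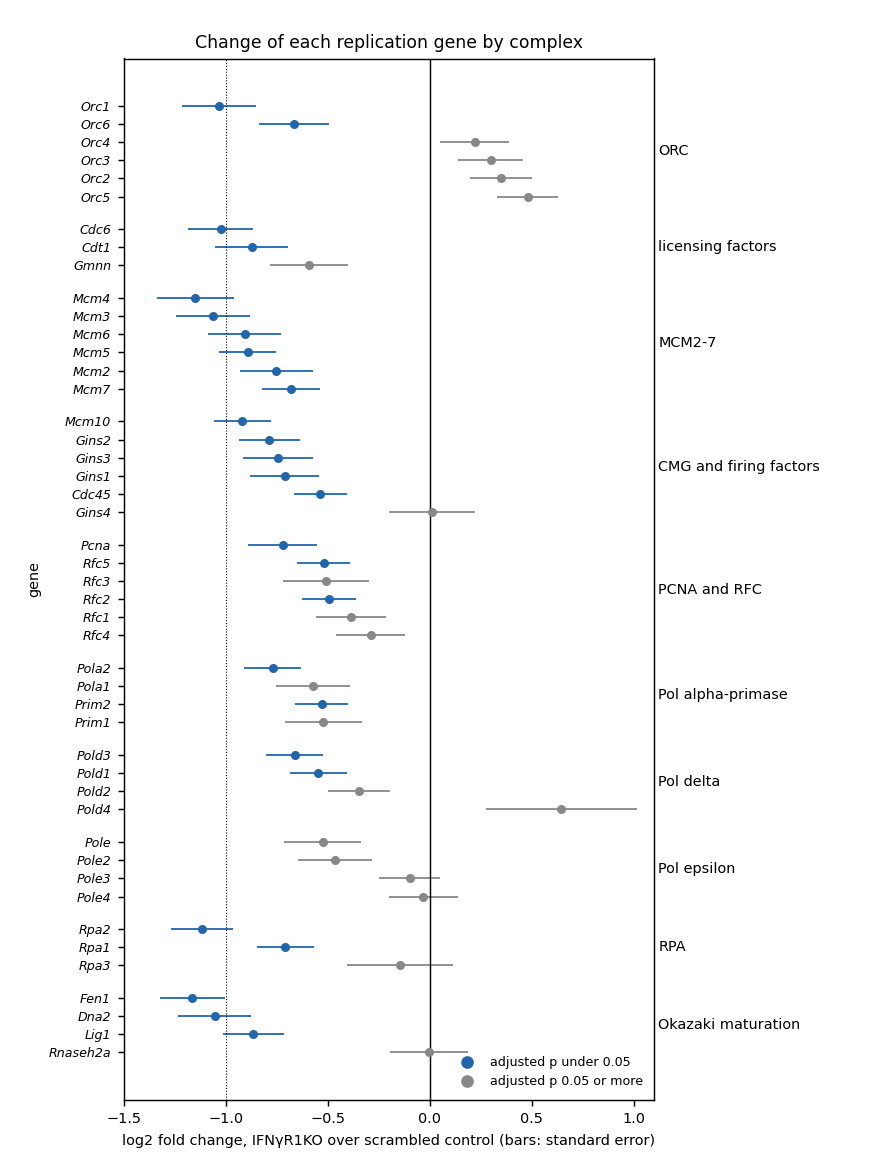
Log2 fold change of IFNγR1KO over scrambled control (x axis) with its standard error (bars) for each of the 46 genes (y axis), grouped by complex. Blue points are the 27 genes with an adjusted p under 0.05, grey points the others, and the dotted line marks -1. Every MCM2-7 point lies at -0.68 or lower, while ORC spans -1.03 to 0.48.

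In Pol alpha-primase, which makes the primers, all 4 genes lay below scrambled control without overlap and 2 passed the test. Pola2, the accessory subunit, had 46.2, 49.5 and 49.2 CPM against 24.6, 29.3 and 31.2 CPM (log2 fold change -0.77, standard error 0.14, edgeR adjusted p = 0.00342). Prim2, the large primase subunit, had 77.1, 79.7 and 75.1 CPM against 54, 59.6 and 47.1 CPM (log2 fold change -0.53, standard error 0.13, edgeR adjusted p = 0.02). Prim1, the catalytic primase subunit and the gene of least change here, had 186, 140 and 118 CPM against 113, 118 and 78.4 CPM (log2 fold change -0.52, standard error 0.19, edgeR adjusted p = 0.0898). Its groups nearly met, since scrambled control replicate 3 and IFNγR1KO replicate 11 both round to 118 CPM. Pola1, the polymerase itself, had a log2 fold change of -0.57 (edgeR adjusted p = 0.0508), and DESeq2's Wald test gave 0.0373. Per length, Prim1 lay above the other 3 in both groups, at 96.2 ± 19.1 TPM in scrambled control (SD, n = 3).

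In Pol delta, the lagging-strand polymerase, 2 of 4 genes fell. Pold3, an accessory subunit, had 54.1, 49.6 and 43.7 CPM against 32.1, 30.5 and 30.5 CPM (log2 fold change -0.66, standard error 0.14, edgeR adjusted p = 0.0072). Pold1, the catalytic subunit, had 72.2, 81.6 and 84.6 CPM against 46.2, 56.6 and 60.3 CPM (log2 fold change -0.55, standard error 0.14, edgeR adjusted p = 0.0228). The groups were apart for both. Pold2, the member of least change, had 98.1, 129 and 129 CPM against 82.3, 95.6 and 102 CPM (log2 fold change -0.35, standard error 0.15, edgeR adjusted p = 0.149). The groups overlapped for Pold2. Pold4, the smallest subunit, was the lowest of the 46 at 1.74 to 5.01 CPM over all libraries. Its log2 fold change of 0.64 had a standard error of 0.37, with overlapping groups. Pold1 kept its call in 3 of the 6 fits that left out a library and Pold3 in 5.

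Pol epsilon, which copies the leading strand, was the complex of which no subunit was called by edgeR or by DESeq2's Wald test. With edgeR 2 of its 4 genes had an unadjusted p under 0.05, compared with 3948 of the 13642 genes tested. Without the filter on low counts edgeR called both Pole (adjusted p = 0.0129) and Pole2 (adjusted p = 0.0405). Pole was also called without IFNγR1KO replicate 12 (edgeR adjusted p = 0.00948), and Pole2 without scrambled control replicate 3 (edgeR adjusted p = 0.0193). Of the 8 alternatives other than leaving out a single library, 3 called Pole and 2 called Pole2. Those that called Pole include the fit without scrambled control replicate 3 and IFNγR1KO replicate 12 together and the fit with the trend on length removed. Pole, the catalytic subunit, had 42, 43 and 59.5 CPM against 25.6, 34.1 and 40.8 CPM (log2 fold change -0.52, standard error 0.19, edgeR adjusted p = 0.0857). Pole was lower without overlap, and Pole2 overlapped at a log2 fold change of -0.46 (edgeR adjusted p = 0.102). Pole3 and Pole4 encode the histone-fold subunits. Pole4 had 345, 333 and 250 CPM against 324, 339 and 245 CPM (log2 fold change -0.03, standard error 0.17, edgeR adjusted p = 0.933). Pole3 had a log2 fold change of -0.10, and both it and Pole4 overlapped between the groups. In both groups Pole4 was the most abundant of the 4 per length, at 309 ± 28.2 and 308 ± 28 TPM (SD, n = 3 each), and Pole the least, at 11.1 ± 3.43 and 7.83 ± 2.4 TPM.

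RPA binds single-stranded DNA as a trimer, and 2 of its 3 genes fell. Rpa2, the middle subunit, had 68.7, 86.6 and 73.2 CPM against 36.5, 39.2 and 29.7 CPM (log2 fold change -1.12, standard error 0.15, edgeR adjusted p = 0.000578). Rpa1, the large subunit, had 223, 256 and 277 CPM against 139, 156 and 168 CPM (log2 fold change -0.71, standard error 0.14, edgeR adjusted p = 0.00606). Both fell in every one of the 15 fits. Rpa3, the small subunit, had 114, 92.6 and 57.1 CPM against 93.2, 93.6 and 50.7 CPM (log2 fold change -0.15, standard error 0.26, edgeR adjusted p = 0.759). Rpa3 overlapped widely, and its 2 low values were again scrambled control replicate 3 and IFNγR1KO replicate 12, at an exonic length of 1136 bases. The ratio of Rpa2 to Rpa3 within a library was 0.605, 0.934 and 1.28 in scrambled control and 0.392, 0.418 and 0.584 in IFNγR1KO cells.

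Among the genes that finish Okazaki fragments 3 of 4 fell, and the median log2 fold change of -0.96 was the lowest of the 10 groups. Fen1, the nuclease that trims the flap, had 108, 124 and 131 CPM against 45.6, 51.9 and 64.7 CPM (log2 fold change -1.16, standard error 0.16, edgeR adjusted p = 0.000508). Dna2, which cuts long flaps, had 32.7, 28.5 and 26.8 CPM against 11.9, 17.2 and 13.1 CPM (log2 fold change -1.05, standard error 0.18, edgeR adjusted p = 0.00193). Lig1, the ligase that seals the nick, had 144, 161 and 181 CPM against 75.9, 88.9 and 102 CPM (log2 fold change -0.86, standard error 0.15, edgeR adjusted p = 0.00255). All 3 kept their calls whichever library was left out. Of the exonic bases of Fen1, however, 84.2% lie under exons of Gm10143 and Tmem258 on the other strand. Gm10143 fell by 1.11 on the log2 scale (edgeR adjusted p = 0.000186) and Tmem258 had a log2 fold change of -0.07, and without the strand setting the reads of Fen1 and Gm10143 cannot be told apart. Rnaseh2a, the catalytic subunit of ribonuclease H2, had 201, 177 and 127 CPM against 182, 191 and 132 CPM (log2 fold change 0.00, standard error 0.19, edgeR adjusted p = 0.995). Its 2 lowest values were those of scrambled control replicate 3 and IFNγR1KO replicate 12, and its mean levels were near each other.

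**Figure D5:**
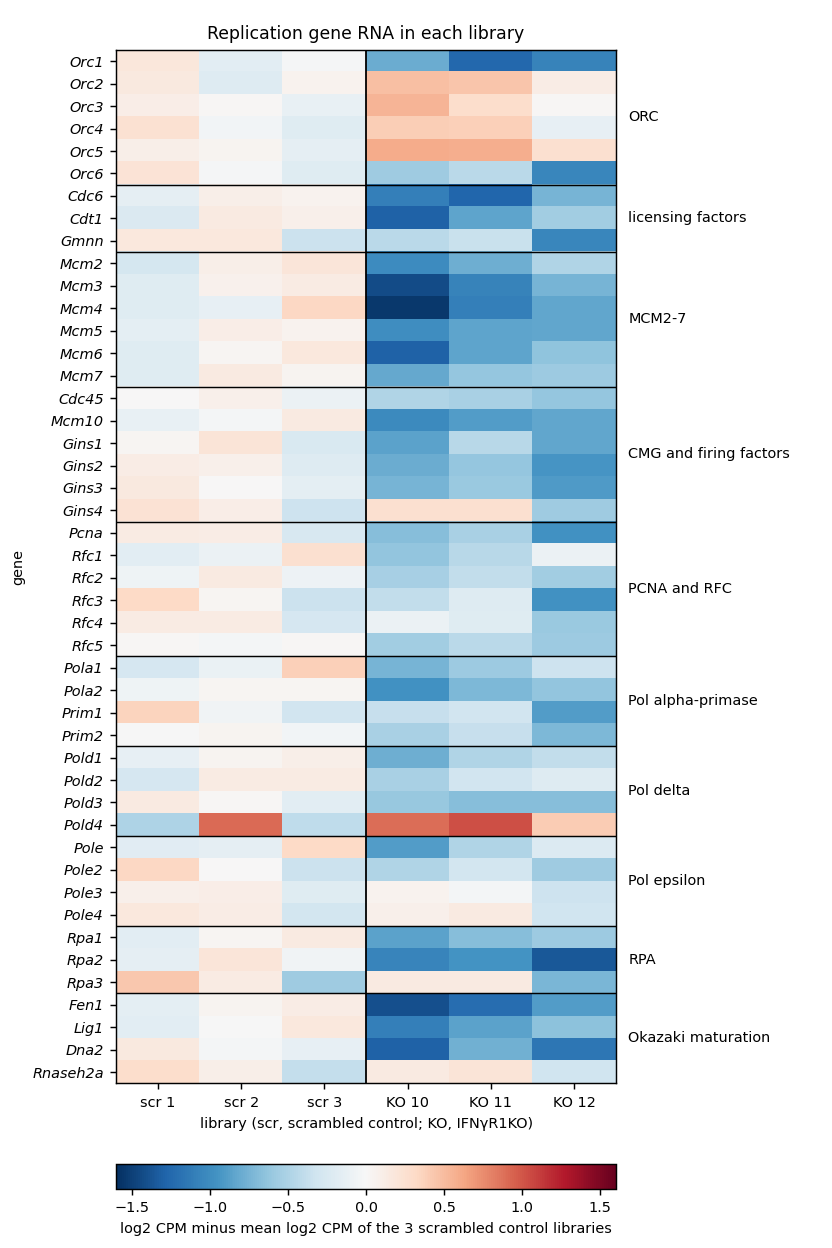
Log2 CPM of each of the 46 genes (rows, grouped by complex) in each library (columns), minus the mean log2 CPM of that gene in the 3 scrambled control libraries. Blue is lower and red higher. The MCM2-7 rows are blue in all 3 IFNγR1KO columns, Orc2 to Orc5 are mostly red there, and many rows shift together in scrambled control replicate 3 and IFNγR1KO replicate 12.

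Set side by side, the medians of the log2 fold changes were -0.96 for Okazaki maturation, -0.90 for MCM2-7, -0.87 for the licensing factors, -0.73 for the CMG and firing factors, -0.71 for RPA, -0.55 for Pol alpha-primase, -0.50 for PCNA and RFC, -0.45 for Pol delta, -0.28 for Pol epsilon and 0.26 for ORC. ORC was the group with a median above 0, at 0.15 without IFNγR1KO replicate 10 and 0.39 without IFNγR1KO replicate 12. The median of Pol epsilon was -0.17 without scrambled control replicate 1. These are groups of 3 to 6 genes, and the difference between any of them was not tested. The 19 genes not called comprise Orc2, Orc3, Orc4, Orc5, Gmnn, Gins4, Rfc1, Rfc3, Rfc4, Pola1, Prim1, Pold2, Pold4, Rpa3, Rnaseh2a and the 4 Pol epsilon genes.

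Other genes of replication that are no members were read from lists written with earlier results of these data known. The lists hold genes of origin firing, fork protection, chromatin assembly behind the fork and control of licensing. Of 39 such genes 38 passed the filter, and 17 fell at an adjusted p under 0.05 with edgeR, where 7.62% of all genes tested fell. The median log2 fold change of the 38 was -0.50. Among firing regulators 3 of 8 fell. Topbp1, a scaffold for helicase activation, had a log2 fold change of -1.02, Wdhd1, which ties Pol alpha to the helicase, of -0.92, and Ticrr, which helps load Cdc45, of -0.68. Among genes that protect the fork 6 of 12 fell, with Tonsl at -1.11, Tipin at -0.81 and Clspn, the checkpoint mediator claspin, at -1.25 having the smallest adjusted p. Among chromatin assembly genes 5 of 9 fell. These included Asf1b, a histone chaperone, at -1.02, Uhrf1, which reads hemimethylated DNA, at -1.42, and Nasp, a histone chaperone, at -0.90. Among genes that control licensing 3 of 9 fell, Skp2, an F-box protein known to target Cdt1, with the smallest adjusted p (0.000866 with edgeR), Dtl, which directs destruction of Cdt1, at a log2 fold change of -0.93, and Mcmbp, which binds MCM proteins, at -0.52.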

How the data were processed

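Paired-end poly(A) RNA of 3 scrambled control and 3 IFNγR1KO cultures was aligned to GRCm38 with STAR 2.7.5a and counted per gene with htseq-count of HTSeq 0.11.2, per the submitters' processing notes. The deposited files hold these raw counts by the authors, without normalization; annotation release and strand setting are not given in the sources used here. Between 46.9% and 47.7% of listed reads per library were in htseq-count's no-feature class, and such summary rows were left out. If the counting used strand, that class also takes reads on the other strand of a gene.

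Counts were tested in edgeR 4.0.16 (filterByExpr with a minimum count of 10 and total of 15, TMM, quasi-likelihood test, Benjamini-Hochberg over all genes). Standard errors are the absolute log2 fold change over the square root of F. TPM used the union of exons in GENCODE M21. The study's own test, DESeq2's Wald test, was run in version 1.42.0 as an alternative, with other scalings and filters, equal depth and each library left out. The test was also run on simulated counts drawn independently for each library. They held no deviation shared between libraries, so that run does not bear on the one seen here. Members, lists and tests were chosen with earlier results of these data known. Values are given for called members and for the largest and smallest change of each complex; of other genes, the 3 called with the lowest adjusted p in either direction are named for each list. Orc5, Gmnn and the folds of the remaining members were added after their values were seen.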

Additional observations from a re-analysis of the deposited data

How the results depend on the processing

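No paired analysis was possible because the groups share no replicate number (1, 2 and 3 against 10, 11 and 12). The 27 genes that fell were called again under DESeq2's Wald test, RLE and upper-quartile scaling, both filters, equal depth and the 2 alternatives chosen after seeing the data (without scrambled control replicate 3 and IFNγR1KO replicate 12 together; trend on length removed), where 27 to 34 genes fell. In those fits 6.15% to 11.8% of all genes tested fell. At an adjusted p under 0.01, 17 fell, and the share of all genes tested at that threshold was not counted. Of the 27, 15 kept their call whichever library was left out. Leaving out 1 library gave 18 (without scrambled control replicate 2) to 31 genes that fell, where 3.25% to 10.3% of all genes tested did (4.03% and 6.46% in the fits with 18 and 31), 3 to 9 DEGs that fell, 0 to 2 genes that rose, and medians of -0.66 to -0.60 for all 46 genes, -1.06 to -0.70 for licensing factors, -0.62 to -0.56 for Pol alpha-primase, -0.32 to -0.17 for Pol epsilon, 0.15 to 0.39 for ORC and -0.99 to -0.86 for Okazaki maturation. With IFNγR1KO replicate 10 left out, 3 DEGs fell. For the alternative fits, the shares of all genes tested that fell as DEGs or that rose were not counted. One gene, Orc5, rose with upper-quartile scaling, at equal depth and with the trend on length removed (1 each), and 2 (Orc2 and Orc5) rose without scrambled control replicate 3 and IFNγR1KO replicate 12, where the medians were -1.02 for the licensing factors, -0.49 for Pol alpha-primase and -0.57 for all 46 genes. The cause of these moves was not tested. No called gene changed sign in any of the 15 fits. Low counts limit Pold4.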

Other observations

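Genes next to replication in the cell cycle, from lists that hold no member, are given for comparison. Of 7 genes that supply deoxynucleotides 6 fell at an edgeR adjusted p under 0.05, where 7.62% of all genes tested fell. The median of the 7 log2 fold changes was -0.81. Rrm2, the small subunit of ribonucleotide reductase, had a log2 fold change of -1.05, Tk1, thymidine kinase, of -1.18, and Rrm1, the large reductase subunit, of -0.93. The summed level of these 7 genes in IFNγR1KO cells was 50.9% of that in scrambled control.

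Of 12 genes of G2 and mitosis 10 fell, where 7.62% of all genes tested fell. The median of the 12 log2 fold changes was -0.72. Plk1, a mitotic kinase, had a log2 fold change of -1.18, Cdk1, the kinase that starts mitosis, of -1.05, and Ccna2, cyclin A2, of -0.86. Their summed level ran from 1920 to 1980 CPM in scrambled control and from 1110 to 1190 CPM in IFNγR1KO cells.

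Of 15 regulators of the step from G1 to S phase 7 fell and 1 rose, where 7.62% of all genes tested fell and 7.73% rose. E2f2 had a log2 fold change of -1.14, Ccne1, cyclin E1, of -0.82, and Ccnd1 and Ccne2, cyclins D1 and E2, which tied on adjusted p, of -0.97 and -1.14, while Cdkn1b, which encodes the inhibitor p27, rose by 0.90 (edgeR adjusted p = 0.00476).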
